A study of Mus musculus with 8 samples.

Results

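Ceramide and sphingolipid enzymes were examined in microglia, the macrophages that reside in brain tissue, of MFP2 knockout and control mice. The set comprised 10 genes, Cers2, Cers5, Cers6, Sptlc1, Sptlc2, Degs1, Asah1, Sgms1, Ugcg and Smpd1, and a member was any probe set annotated to that symbol alone. All 10 genes were measured, each by 1 probe set, among 19938 genes with a symbol of their own, so the rule of keeping the brightest probe set of a gene made no choice here. MFP2 (multifunctional protein-2, the product of Hsd17b4) is a peroxisomal beta-oxidation enzyme whose substrates include branched-chain and very long-chain fatty acids. The knockout group held 4 samples from Swiss Webster mice lacking MFP2 and the control group 4 samples from wild type Swiss Webster mice, all labelled female and 17 weeks of age. For each sample, whole-brain cells in the CD11b-high, CD45-intermediate gate were collected, and 1 whole-transcript microarray was made from amplified RNA. The sources used here do not give the deleted allele or the tissues it was deleted in. They also do not state that the samples of a group were different animals, and the p-values below then reflect spread that may be technical. With 4 arrays a group, their number limits the precision of every comparison.

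Ceramide is the hub of sphingolipid metabolism. It is built in the endoplasmic reticulum from serine and an acyl-CoA by serine palmitoyltransferase, a reductase, the ceramide synthases and a desaturase, and it is then turned into sphingomyelin or into glucosylceramide in the Golgi. Lysosomal enzymes take these lipids apart again to ceramide, sphingosine and fatty acid, a route that phagocytes such as microglia use for lipids of ingested membranes and myelin. The ceramide synthases differ in the acyl-CoA they prefer: the product of Cers2 attaches very long-chain acyl groups, and those of Cers5 and Cers6 attach shorter, long-chain ones.

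Of the 10 enzymes, Cers6 was higher in knockout microglia, 0 were lower and 9 did not pass the test, against 9.55% of all genes tested (5.38% higher and 4.17% lower). A gene was called when its adjusted p was under 0.05 in a limma fit over all 19938 genes. The share of members called, 10%, was near that of all genes, but all members were among the brighter genes: of those with a mean log2 value of at least 6, 18.8% were called in a fit of those genes alone. At an unadjusted p under 0.05 the fit over all 19938 genes had 3 members, Cers6, Degs1 and Ugcg, among 4196 genes in all. The median log2 change of the 10 was -0.02, as was that of all genes tested, and the median size of change was 0.11 in both. The 8 arrays did not overlap between groups for 1 member, Cers6, against 14% of all genes (7.09% with the knockouts above and 6.92% with the knockouts below). Of the 9 that did not pass, 2 were positive and 7 negative in sign, between -0.30 and 0.27.

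Some arrays stood apart. Hsd17b4 had log2 values of 4.76 to 7.20 in knockout arrays, with knockout 2 at 7.20 and the others at 5.21 or below, against 7.82 to 9.09 in control arrays; where its probe set lies relative to the deleted part is not known. On the first principal component control 3 (9.62) was the control array closest to the knockout arrays, which ran between -30.2 and -12.4, while the other controls lay at 23.2 or above. Xist, expressed from the inactive X chromosome of females, was at 6.80 in control 1 against 10.8 or more in the other control arrays, which goes against the female label of control 1. Of 9 measured microglial markers 8 were lower and 0 higher in knockouts, with summed linear levels of 21554 to 25635 in knockout arrays and 32274 to 37718 in control arrays, and each kept a mean log2 level of 9.45 or more over all arrays. In sorted bulk cells, fewer cells of a type and less RNA per cell cannot be told apart. The part of these differences in the results below was not tested.

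The first step of the pathway showed no change past the threshold. Sptlc1 encodes the shared subunit of serine palmitoyltransferase, which joins serine to palmitoyl-CoA. Its log2 values were 7.62, 7.88, 7.74 and 7.92 in knockout 1 to 4, against 7.81, 8.00, 7.90 and 7.61 in control 1 to 4. The groups overlapped over nearly their whole range, and the difference of -0.04 ± 0.11 (SE, adjusted p = 0.887) had a 95% interval of -0.27 to 0.19. Sptlc2, the catalytic partner that binds the pyridoxal phosphate cofactor, was at 8.86, 9.02, 9.34 and 9.28 in knockouts and at 9.26, 9.59, 9.01 and 9.17 in controls. Knockout 1 was the lowest and control 2 the highest, with the other 6 arrays intermingled between them. The difference was -0.13 ± 0.14 (SE, adjusted p = 0.678), with an interval of -0.44 to 0.17.

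Of the 3 ceramide synthases Cers6 passed the test, and Cers2 and Cers5 did not. Cers6 had log2 values of 8.26, 8.27, 8.61 and 9.27 in knockout 1 to 4, against 7.78, 8.03, 8.03 and 7.67 in control 1 to 4. Every knockout array was above every control array, and knockout 4 stood highest, so that the knockouts spanned 1.01 log2 units and the controls 0.37. The mean was 8.60 ± 0.47 in knockouts and 7.88 ± 0.18 in controls (SD, n = 4 each), a log2 rise of 0.72 ± 0.19 (SE), that is 1.65-fold, with an interval of 1.23 to 2.21 for the ratio (limma adjusted p = 0.0339). The spread of Cers6 among the knockout arrays was at the 98.7th percentile of all genes. Cers6 did not pass without knockout 3 (adjusted p = 0.0791), control 1 (0.0874), control 2 (0.0665) or control 4 (0.0979), and it passed without any other single array. Its change was 0.50 without knockout 4, the array with the highest value, and 0.89 without control 3 and knockout 2. It was 0.86 without control 1, control 3 and knockout 2, where it did not pass (adjusted p = 0.0969).

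**Figure D1:**
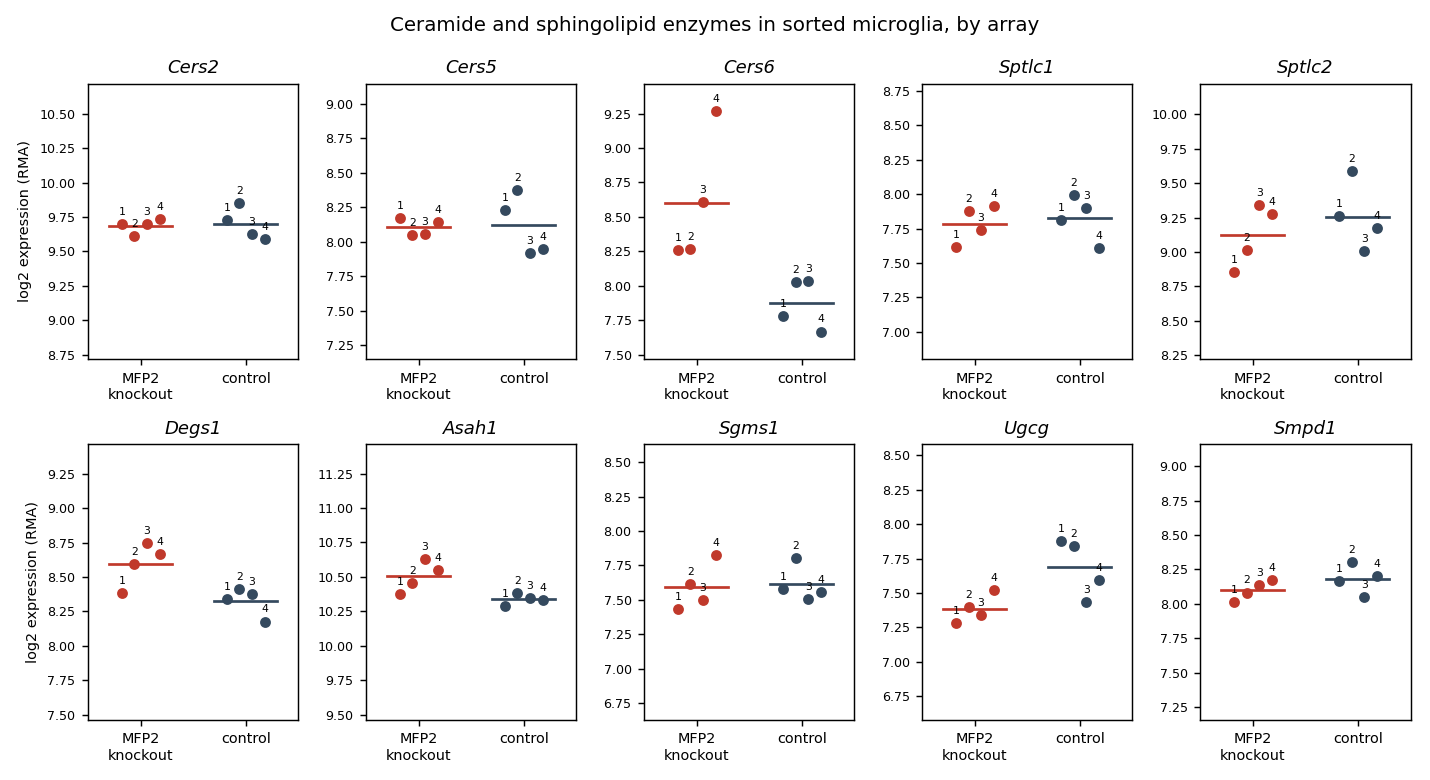
Log2 expression (RMA) of the 10 enzymes in each array, knockout arrays in red on the left and control arrays in dark blue on the right of each panel, with the replicate number above each point and the group mean as a line; every y axis spans the same number of log2 units. Cers6 is the panel in which the 4 knockout arrays, 8.26 to 9.27, all lie above the 4 control arrays, 7.67 to 8.03.

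Cers2 encodes the ceramide synthase for very long-chain acyl groups. Its log2 values were 9.70, 9.61, 9.70 and 9.73 in knockouts and 9.73, 9.85, 9.63 and 9.59 in controls. The knockout arrays lay within the range of the controls. Their difference was -0.01 ± 0.09 (SE, adjusted p = 0.964), with an interval of 0.87 to 1.13 for the ratio of knockout to control. Cers5 encodes a synthase for long-chain acyl groups, like Cers6. It was at 8.17, 8.05, 8.06 and 8.14 in knockouts, against 8.23, 8.38, 7.92 and 7.95 in controls. The knockouts again fell between the control values. The difference was -0.01 ± 0.11 (SE, adjusted p = 0.964), with an interval of 0.84 to 1.17 for the ratio.

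Whether Cers6 differed from Cers2 and Cers5 was tested within each array, a comparison chosen after the values were seen. Cers6 was picked as the member past the threshold, while Cers2 and Cers5 each changed by -0.01. The differences below thus largely repeat the change of Cers6 on the same arrays. Cers3 and Cers4 were not compared. The log2 value of Cers6 minus that of Cers2 was -1.09 ± 0.44 in knockouts and -1.82 ± 0.16 in controls (SD, n = 4 each), with no overlap between groups. That difference of 0.74 reached the smallest two-sided p that 70 splits of 8 arrays allow in an exact permutation test, 0.0286, or 0.0571 adjusted over the 2 pairs. Cers6 minus Cers5 was 0.50 ± 0.46 in knockouts and -0.24 ± 0.25 in controls, a difference of 0.74 with an exact permutation p of 0.0571 and the same adjusted value. With this few arrays the adjusted p could pass for either pair only if both pairs reached the smallest value, so the miss does not show equal change.

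The promoters of the 3 ceramide synthase genes are shown because these genes share a reaction, and Cers6 was the member past the threshold. The sequences are RefSeq's on GRCm38.p6 and run, 5′ to 3′, from 250 bases before to 50 bases after an annotated start. Windows were found for 9 of the 10 enzymes, and where a gene had several, the one farthest upstream was taken. Cers6 is given at chr2:68861191-68861490 on the plus strand, Cers2 at chr3:95314940-95315239 on the plus strand and Cers5 at chr15:99772466-99772765 on the minus strand. Capitals mark CACGTG, the palindromic E-box core read by several basic helix-loop-helix factors and the same on both strands.
Cers6: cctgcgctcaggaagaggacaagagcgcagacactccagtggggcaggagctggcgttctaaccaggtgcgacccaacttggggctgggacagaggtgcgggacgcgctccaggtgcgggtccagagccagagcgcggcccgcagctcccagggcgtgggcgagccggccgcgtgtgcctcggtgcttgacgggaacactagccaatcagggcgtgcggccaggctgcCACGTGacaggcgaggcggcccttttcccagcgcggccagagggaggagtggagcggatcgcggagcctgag
Cers2: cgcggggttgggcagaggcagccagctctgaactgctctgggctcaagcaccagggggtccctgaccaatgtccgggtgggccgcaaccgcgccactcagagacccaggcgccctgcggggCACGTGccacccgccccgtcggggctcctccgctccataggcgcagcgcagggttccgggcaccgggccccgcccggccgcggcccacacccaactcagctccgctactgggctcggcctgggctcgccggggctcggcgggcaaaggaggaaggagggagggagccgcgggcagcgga
Cers5: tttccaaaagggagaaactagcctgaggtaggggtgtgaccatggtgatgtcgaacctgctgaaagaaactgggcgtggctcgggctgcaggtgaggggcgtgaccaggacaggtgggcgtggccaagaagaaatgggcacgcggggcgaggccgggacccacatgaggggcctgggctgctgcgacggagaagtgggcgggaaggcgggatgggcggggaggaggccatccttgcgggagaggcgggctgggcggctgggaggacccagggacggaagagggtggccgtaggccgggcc
The Cers6 window holds 1 CACGTG, which begins 22 bases before the start, and the Cers2 window holds 1 that begins 129 bases before it. The Cers5 window holds none. Across all 32851 promoter windows, with several for some genes, 7.15% hold the motif. Among the 9 enzymes with a window, counted by 1 window each, it is in 3, those of Cers6, Cers2 and Degs1. The windows of the enzymes were 59.3% to 81.3% G or C, and the full set was not matched for this. The shares thus differ in basis and were not tested against each other. A match does not show that a factor binds, and a link between the motif and the changes was not tested.

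Degs1 encodes the desaturase that turns dihydroceramide into ceramide, the last step of synthesis. It was at 8.39, 8.59, 8.75 and 8.66 in knockout 1 to 4, against 8.34, 8.41, 8.37 and 8.18 in control 1 to 4. Knockout 1 fell between control 2 and the other controls, and the other knockouts were above all controls. The difference was 0.27 ± 0.10 (SE), with an interval of 0.05 to 0.49 and an unadjusted p of 0.0184, and it did not pass after adjustment (adjusted p = 0.125). Without knockout 1 it was 0.34 and passed (adjusted p = 0.0498).

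Neither of the 2 enzymes that draw on ceramide in the Golgi passed, and their changes were not tested against each other. Ugcg encodes glucosylceramide synthase, the entry to glycosphingolipids. It was at 7.28, 7.40, 7.34 and 7.52 in knockouts, against 7.88, 7.84, 7.43 and 7.59 in controls. Controls 1, 2 and 4 stood above all knockouts, while control 3 lay among them. The difference was -0.30 ± 0.11 (SE), with an interval of -0.55 to -0.06, an unadjusted p of 0.0187 and an adjusted p of 0.126. Without control 3 it was -0.39 and passed (adjusted p = 0.0411), and without control 3 and knockout 2 it was -0.39 and did not. Sgms1 encodes the Golgi sphingomyelin synthase. Its values were 7.43, 7.62, 7.50 and 7.83 in knockouts and 7.58, 7.80, 7.51 and 7.56 in controls, and the controls lay within the range of the knockouts. The difference was -0.02 ± 0.11 (SE, adjusted p = 0.951), with an interval of -0.25 to 0.21.

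The lysosomal enzymes on either side of ceramide did not pass. Smpd1 encodes acid sphingomyelinase, which releases ceramide from sphingomyelin. It was at 8.01, 8.08, 8.14 and 8.17 in knockouts, against 8.17, 8.30, 8.05 and 8.20 in controls. Control 2 was the highest array and the rest lay close together. The difference was -0.08 ± 0.09 (SE, adjusted p = 0.702), with an interval of -0.27 to 0.11. Asah1 encodes acid ceramidase, which splits ceramide into sphingosine and a fatty acid. It was at 10.38, 10.46, 10.63 and 10.55 in knockouts, against 10.29, 10.38, 10.35 and 10.33 in controls. Knockout 1 fell just below control 2, and the other knockouts were above all controls. The difference was 0.17 ± 0.09 (SE, adjusted p = 0.301), with an interval of -0.02 to 0.35.

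**Figure D2:**
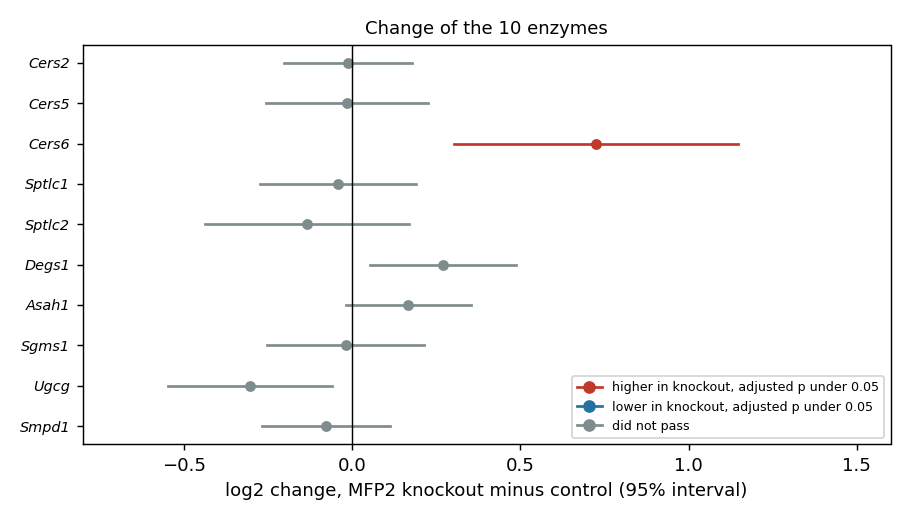
Log2 change of each enzyme, MFP2 knockout minus control, with its 95% interval from the limma fit; red marks a gene past an adjusted p of 0.05 and grey a gene that did not pass. Cers6, at 0.72, is the member past the threshold; Degs1 and Ugcg have intervals on either side of 0 that do not include it, but did not pass after adjustment over all genes.

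Within a group, the same arrays were often the extremes for several members. Knockout 1 had the lowest knockout value of 8 of the 10 genes, and knockout 4 the highest of 6; among genes with a mean log2 value of at least 6 these arrays held those places for 26.6% and 37.4%. Control 2 had the highest control value of 8 of the 10 genes, and control 3 and control 4 had the lowest of 5 and 4, against 41.3%, 35% and 30.1% of those brighter genes. No test of these counts was run. Over all probe sets the medians of the arrays lay between 6.03 and 6.15, and control 2, high for most members, had the lowest median of the 8. The 3 ceramide synthases did not share their spread: the knockout arrays spanned 0.12 log2 units for Cers2 and 0.13 for Cers5, against 1.01 for Cers6.

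**Figure D3:**
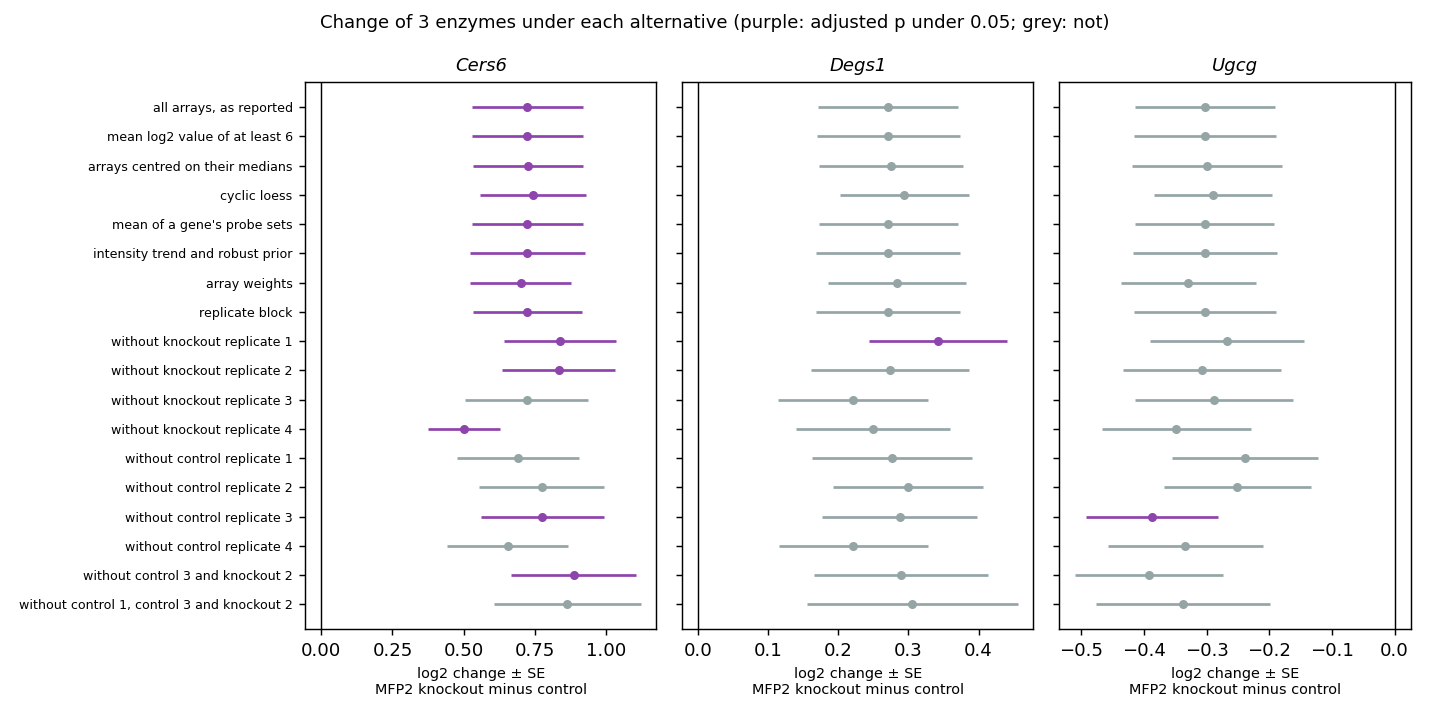
Log2 change (MFP2 knockout minus control) with its SE for Cers6, Degs1 and Ugcg with all arrays (top row) and under each other choice of processing or of arrays; purple marks an adjusted p under 0.05 and grey one that did not pass. Cers6 stays between 0.50 and 0.89 and does not pass in 5 of 17 alternatives, while Degs1 and Ugcg pass in 1 each. The stricter thresholds are not among the 17, and averaging probe sets cannot change the values of genes with 1 probe set.

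The genes whose values over the 8 arrays were most like those of Cers6 came from other families. Each gene was set to its own control mean and compared by the root mean square difference over the arrays, among 18055 protein-coding genes. Fgl2, a fibrinogen-like protein secreted by immune cells, was nearest, at a root mean square difference of 0.107 log2 units. Tarm1, an activating receptor of myeloid cells, followed at 0.109 and Ms4a6c, a membrane-spanning protein of macrophages, at 0.115. In all 3, as in Cers6, knockout 4 was the highest array, at 8.70, 8.02 and 9.86. Fgl2 (0.71 ± 0.18, SE, adjusted p = 0.0238) and Tarm1 (0.81 ± 0.21, adjusted p = 0.0305) passed the test, and Ms4a6c (0.61 ± 0.22, adjusted p = 0.122) did not. Because the 3 genes were picked for likeness to Cers6 over these same arrays, a shared highest array and similar changes follow from that choice.

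Beyond the 10 enzymes, other genes of sphingolipid metabolism were followed in 6 lists by role, of which 61 of 64 genes were measured and the others are not analysed here. Of the 61, 10 were higher, 4 were lower and 47 did not pass, so 23% were called against 9.55% of all genes. In the fit of genes with a mean log2 value of at least 6, 42 of the 61 were kept. Of these, 10 were higher and 5 lower, where 18.8% of all such genes were called. The 5 lower genes are not the 4 above with 1 more. Degs2, lower in the fit over all genes, was left out, and genes that did not pass there passed here. The lists were chosen with earlier results of these data known, so these shares are not independent of the values. The median log2 change of the 61 was -0.02. By role, 5 of 11 genes of glycosphingolipid breakdown were called (45.5%), 3 of 14 of glycosphingolipid synthesis (21.4%), 3 of 10 of sphingomyelin and ceramide phosphate metabolism (30%) and 1 of 10 of de novo ceramide synthesis (10%). The contrast between lists was not tested.

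**Figure D4:**
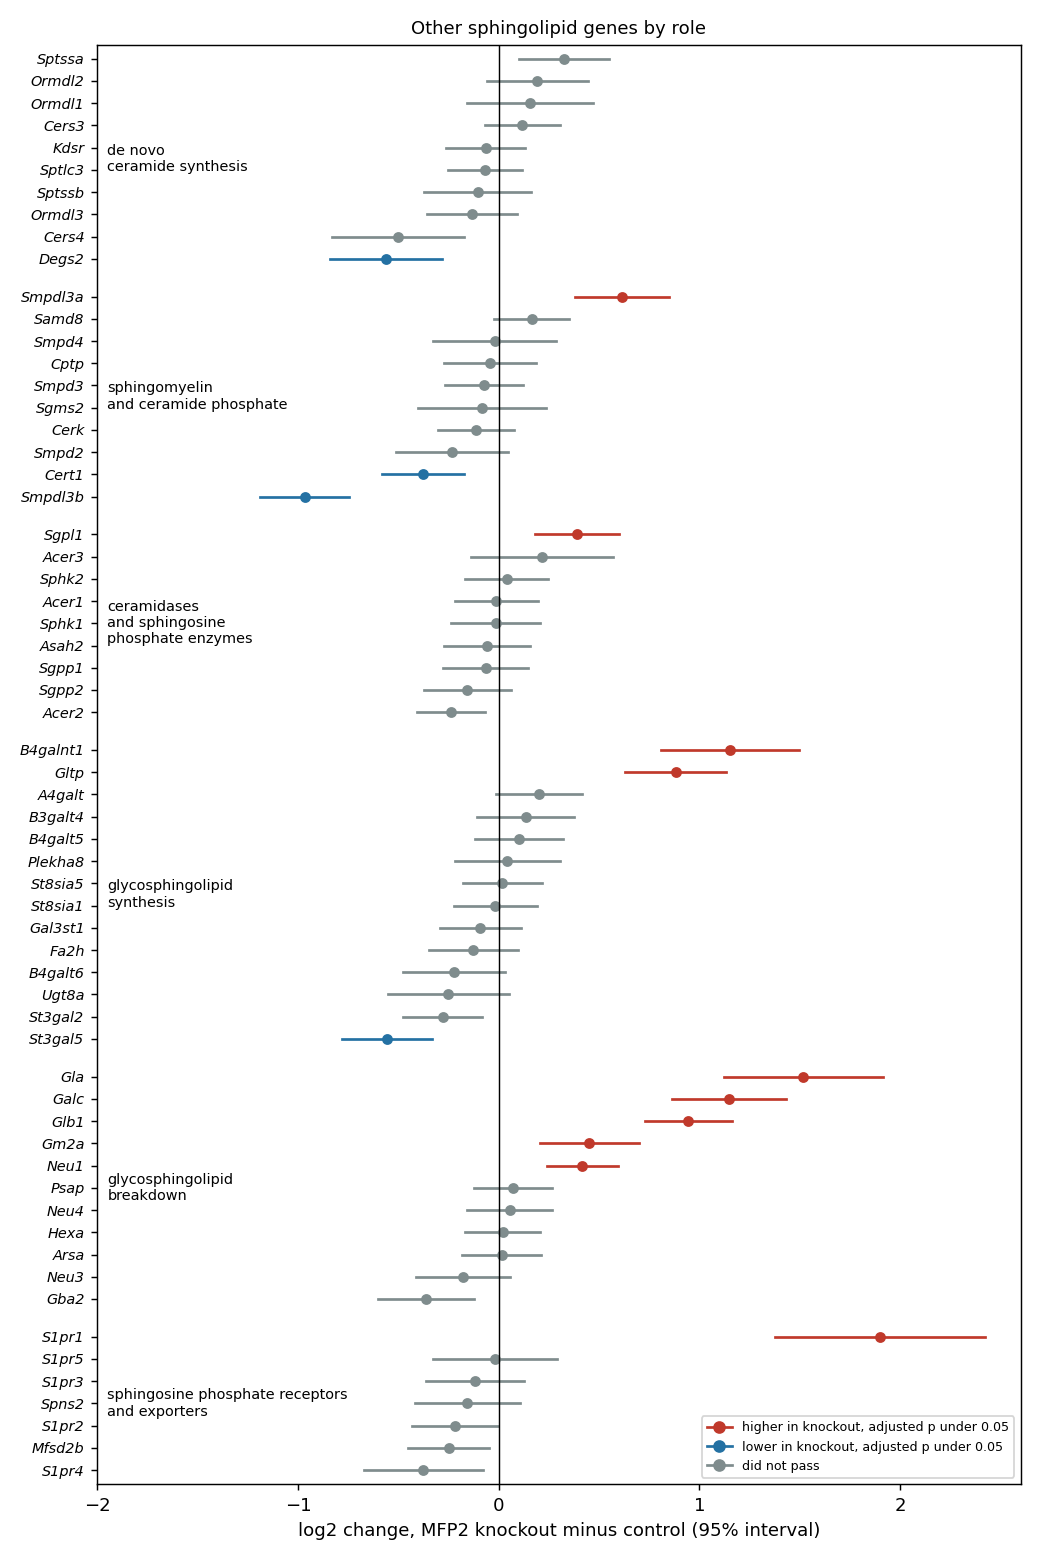
Log2 change (MFP2 knockout minus control) with 95% interval for 61 other sphingolipid genes, grouped by role and ordered within each role; red marks genes higher and blue genes lower past an adjusted p of 0.05, grey genes that did not pass. Among glycosphingolipid breakdown genes 5 lie to the right and 0 to the left past the threshold, and S1pr1 has the largest change of those shown, 1.90.

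Enzymes that take glycosphingolipids apart in the lysosome rose in part. Gla encodes the galactosidase that acts on globo-series lipids. It was at 7.86, 7.79, 8.69 and 8.40 in knockouts, against 6.51, 6.57, 6.94 and 6.65 in controls, a log2 rise of 1.52 ± 0.18 (SE), that is 2.87-fold (adjusted p = 0.000441). Every knockout was above every control, with knockouts 3 and 4 the highest. Galc encodes galactosylceramidase, which breaks down the main glycolipid of myelin. Its values were 8.85, 8.73, 9.04 and 9.14 in knockouts and 7.88, 8.03, 7.78 and 7.47 in controls, a rise of 1.15 ± 0.13 (SE) or 2.22-fold (adjusted p = 0.000399). The gap between the groups was wider than the spread within either.

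Glb1, the lysosomal beta-galactosidase of gangliosides and glycans, was at 8.93, 8.89, 9.14 and 9.17 in knockouts, against 8.08, 8.21, 8.14 and 7.92 in controls, 1.92-fold higher (adjusted p = 0.00029). Gm2a, the activator protein that presents a ganglioside to hexosaminidase, averaged 10.48 ± 0.14 in knockouts and 10.03 ± 0.20 in controls (SD, n = 4 each) and rose by 0.45 ± 0.11 (SE, adjusted p = 0.0247). Neu1, a sialidase that acts largely on glycoproteins and oligosaccharides, averaged 7.53 ± 0.06 in knockouts and 7.11 ± 0.07 in controls and rose by 0.42 ± 0.08 (SE, adjusted p = 0.00648). The groups did not overlap for any of these 5 genes. Over all genes 14% did not overlap, and picking genes past the threshold favours this. Gla, Galc and Glb1 passed in all 17 alternatives. Gm2a did not pass without knockout 3 (adjusted p = 0.0781), knockout 4 (0.0703), control 1 (0.073) or control 4 (0.0619), and neither Gm2a (0.112) nor Neu1 (0.0615) passed without control 1, control 3 and knockout 2. The other 6 did not pass, among them Hexa, a hexosaminidase subunit (0.02 ± 0.09), Psap, the precursor of the saposins that assist these enzymes (0.07 ± 0.09), and Arsa, the sulfatide sulfatase (0.01 ± 0.09). Gba2, a glucosylceramidase outside the lysosome, was at -0.36 ± 0.11 (SE) with an adjusted p of 0.0588.

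Genes that build and move glycosphingolipids went in both directions, 2 of 14 higher and 1 lower. St3gal5 makes the simplest ganglioside by adding sialic acid to lactosylceramide. It lay between 8.79 and 9.12 in knockout arrays, against 9.35 to 9.63 in control arrays, and fell by 0.56 on the log2 scale (SE 0.10, adjusted p = 0.00487). B4galnt1 acts on that product, adding N-acetylgalactosamine. It was at 8.60, 8.74, 9.04 and 9.18 in knockouts, against 7.31, 7.84, 7.96 and 7.84 in controls, and rose by 1.15 ± 0.16 (SE, adjusted p = 0.00082). Consecutive steps of ganglioside synthesis thus had changes of opposite sign. The groups did not overlap in either, as in 14% of all genes, which the choice of called genes favours.

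Gltp, a cytosolic protein that carries glycolipids between membranes, was at 9.63, 9.58, 9.96 and 9.96 in knockouts, against 8.86, 8.96, 9.05 and 8.72 in controls, a rise of 0.88 ± 0.12 (SE, adjusted p = 0.000651). Ugt8a and Fa2h, which make the galactosylceramide of myelin and hydroxylate its fatty acid, did not pass, at 4.40 ± 0.12 in knockouts and 4.65 ± 0.31 in controls for Ugt8a and at 5.82 ± 0.06 and 5.95 ± 0.19 in the same order for Fa2h (SD, n = 4 each). Among 8 measured markers of oligodendrocytes and myelin, Mbp was higher by 0.59 (adjusted p = 0.00305) and 7 did not pass. The summed linear level of the 8 was 684 to 758 in knockout arrays and 607 to 678 in control arrays. That sum includes Mbp, with a mean log2 value of 7.75 in knockouts and 7.16 in controls. The log2 changes of the other 7 lay between -0.24 (Mog) and 0.15 (Ermn). Of 7 astrocyte markers Gfap and Aldoc were higher and 5 did not pass, with sums of 833 to 903 in knockouts and 763 to 858 in controls. Their part in the changes of Galc, Gltp and B4galnt1 was not tested.

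**Figure D5:**
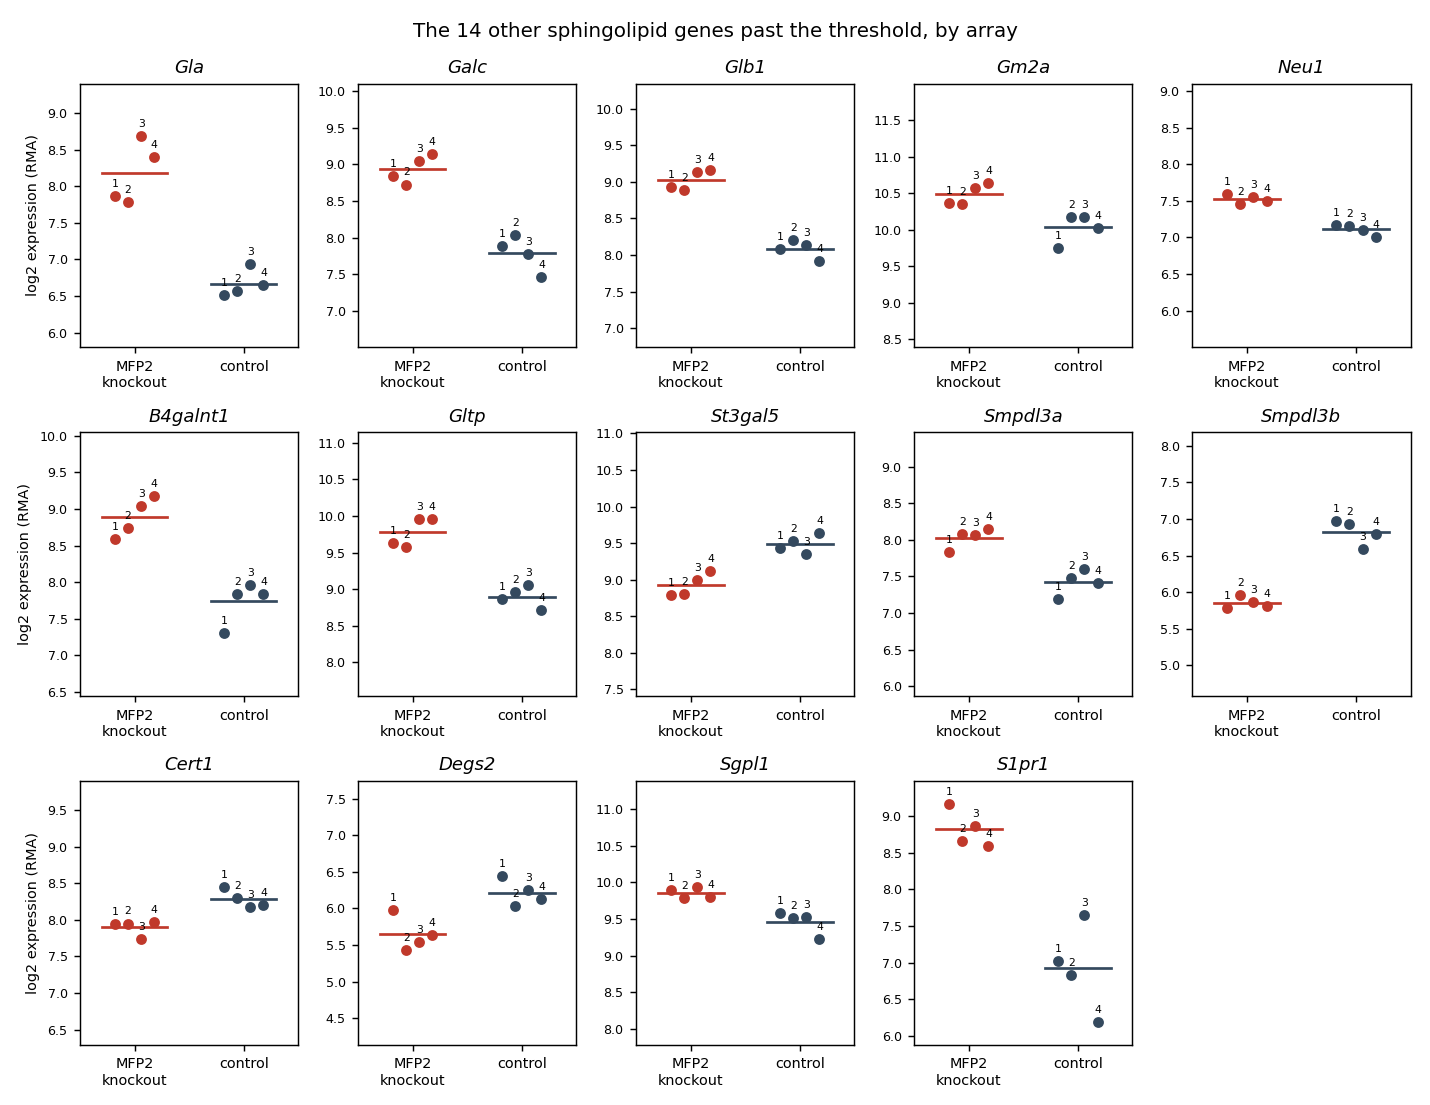
Log2 expression (RMA) in each array of the 14 other sphingolipid genes past the threshold, knockout arrays in red on the left and control arrays in dark blue on the right, with replicate numbers above the points and group means as lines; every y axis spans the same number of log2 units. The groups are apart in all 14 panels, which the choice of genes by the same comparison favours. The gap between them is widest for S1pr1, with knockouts at 8.60 or above and controls at 7.65 or below.

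In sphingomyelin and ceramide phosphate metabolism 1 of 10 genes was higher and 2 were lower. Smpdl3b encodes a membrane-anchored phosphodiesterase related to acid sphingomyelinase that dampens Toll-like receptor signalling in macrophages. It was at 5.79, 5.97, 5.87 and 5.81 in knockouts, against 6.98, 6.94, 6.59 and 6.79 in controls, and fell by 0.97 on the log2 scale (SE 0.10, adjusted p = 0.00029). Its relative Smpdl3a, whose product cleaves nucleotides rather than sphingomyelin, was at 7.83, 8.08, 8.06 and 8.14 in knockouts, against 7.19, 7.47, 7.60 and 7.41 in controls, and rose by 0.61 ± 0.11 (SE, adjusted p = 0.00339). The 2 paralogs thus had changes of opposite sign. The groups did not overlap in either, as in 14% of all genes, which the choice of called genes favours. Cert1, which carries ceramide to the Golgi for sphingomyelin synthesis, was at 7.94, 7.95, 7.74 and 7.97 in knockouts, against 8.44, 8.29, 8.17 and 8.21 in controls. It fell by 0.38 (SE 0.09, adjusted p = 0.0239), but did not pass without knockout 3 (0.0844), control 1 (0.083) or control 2 (0.0581), nor without control 1, control 3 and knockout 2 (0.166). None of the sphingomyelinase genes Smpd2, Smpd3 and Smpd4 passed.

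Of the 10 other de novo synthesis genes Degs2, a desaturase and hydroxylase related to Degs1, was lower and 0 were higher. It was at 5.98, 5.44, 5.54 and 5.64 in knockouts, against 6.44, 6.04, 6.25 and 6.13 in controls, and fell by 0.56 (SE 0.13, adjusted p = 0.0147). It did not pass without knockout 3 (adjusted p = 0.0503) or control 1 (0.0506), nor without control 3 and knockout 2 (0.0792) or without these and control 1 (0.269). Degs2 was dim, with means of 5.65 in knockouts and 6.21 in controls. The filter on a mean log2 value of at least 6 left it out. Just outside the threshold lay Cers4, another ceramide synthase, at -0.50 ± 0.15 (SE, adjusted p = 0.0578), and Sptssa, a small activating subunit of serine palmitoyltransferase, at 0.33 ± 0.10 (adjusted p = 0.072). The 3 Ormdl genes, whose products restrain that enzyme, did not pass.

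Among 9 ceramidases and enzymes of sphingosine phosphate, Sgpl1, the lyase that ends the pathway by cleaving sphingosine phosphate, was higher and 0 were lower. It was at 9.90, 9.79, 9.93 and 9.81 in knockouts, against 9.58, 9.51, 9.53 and 9.23 in controls, a rise of 0.39 ± 0.10 (SE, adjusted p = 0.0219). Its groups did not overlap, as in 14% of all genes, which the choice of a called gene favours. It did not pass without knockout 3 (adjusted p = 0.0739) or control 4 (0.0652), nor without control 1, control 3 and knockout 2 (0.0614). The kinases Sphk1 (-0.02 ± 0.10, SE) and Sphk2 (0.04 ± 0.10) did not pass.

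Of 7 receptors and exporters of sphingosine phosphate, S1pr1 was higher and 0 were lower. S1pr1, a receptor that also directs lymphocyte egress and endothelial barrier function, was at 9.16, 8.67, 8.86 and 8.60 in knockouts, against 7.02, 6.83, 7.65 and 6.19 in controls. The lowest knockout was well above the highest control, control 3. The log2 rise was 1.90 ± 0.24 (SE), that is 3.73-fold (adjusted p = 0.000574). S1pr2, S1pr3, S1pr4 and S1pr5 did not pass, with changes of -0.22, -0.12, -0.38 and -0.02. Among 5 endothelial markers Flt1 was higher by 1.99 (adjusted p = 0.00143) and 4 did not pass, with Cldn5 at 5.69 ± 0.16 in knockouts and 5.79 ± 0.12 in controls and Cdh5 at 5.36 ± 0.11 and 5.37 ± 0.16 in the same order (SD, n = 4 each). The summed linear level of the 5 was 268 to 462 in knockout arrays and 159 to 232 in control arrays. That sum includes Flt1, with a mean log2 value of 7.67 in knockouts and 5.68 in controls. The log2 changes of Cldn5, Cdh5, Slco1a4 and Itm2a were -0.10, -0.01, -0.06 and 0.14. The part of endothelial RNA in the change of S1pr1 was not tested. None of 5 lymphocyte markers passed, with sums of 308 to 505 in knockouts and 259 to 478 in controls. Of 7 markers of brain-border macrophages 1 was higher and 4 were lower, with sums of 398 to 646 in knockouts and 645 to 1019 in controls. Of 5 monocyte and neutrophil markers Ccr2 was lower and 4 did not pass, with sums of 5154 to 8881 in knockouts and 2285 to 12634 in controls, the lowest in control 1. None of 5 neuronal markers passed, with sums of 213 to 243 in knockouts and 183 to 222 in controls.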

How the data were processed

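Each of 8 samples of sorted microglia (4 MFP2 knockout, 4 control, grouped by the labels' titles) gave 1 array from 5.775 ng of RNA, amplified with NuGEN kits per the labels' protocols. The deposited values are log2 expression per probe set, for which the submitters' processing notes name RMA; its version and chip library were not given in the sources used here. That the logs are to base 2 follows from their range alone. RMA brings the arrays to a common distribution, which hides any shift common to every gene and shrinks the changes of dim ones; amplification of so little RNA can favour some transcripts. Of 28874 probe sets 21789 had 1 gene symbol, 1621 several and 5464 none; the last 2 kinds were not used, and 0 columns went unused. The fit of knockout against control used lmFit and eBayes of limma 3.58.1 (R 4.3.3; no covariate, two-sided), adjusted by Benjamini-Hochberg over 19938 genes. Intervals are 95% intervals of that fit. The method was tested on simulated data.

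The members, lists and tests were chosen with earlier results of these data known. Named genes were Hsd17b4, the members, up to 4 called genes per role list, and the 3 genes most like each called member; Gm2a, Gba2, Hexa, Psap, Arsa, Ugt8a, Fa2h, Cers4, Sptssa and other genes that did not pass, and the marker genes, were named after their values were seen. No pairing of arrays was assumed. Alternatives were a filter on dim genes, median centring, cyclic loess, probe sets averaged per gene, an intensity trend with robust prior, array weights, a replicate block, arrays left out, and stricter thresholds. Python 3.11.15 with matplotlib 3.10.9 drew the figures.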

Additional observations from a re-analysis of the deposited data

Results flagged for a closer look

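Cert1 in knockout 3, at a log2 value of 7.74, lay apart from the other 3 knockout arrays, the nearest of which was at 7.94; the gap was 0.85 of the range of the group. Of 50 groups of 4 arrays examined for the genes named, this was the 1 with such a gap, and chance alone gives about 1 in 20. Without knockout 3 the change of Cert1 was -0.33 and did not pass (adjusted p = 0.0844).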

How the results depend on the processing

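Leaving out 1 array at a time, 0 to 2 members were called higher and 0 to 1 lower, and 8 to 11 of the other sphingolipid genes were called higher and 2 to 5 lower. The 1 higher member became 0 without knockout 3, control 1, control 2 or control 4 and 2 (Cers6 and Degs1) without knockout 1, and 1 member, Ugcg, was lower without control 3. The 4 lower genes became 2 without knockout 3 or control 1. Without control 1, control 3 and knockout 2, 0 members were higher and 2 other genes lower. At an adjusted p under 0.01, 0 members were higher and 2 other genes lower, and with at least 1.5-fold change 1 other gene was lower. The members near 0 changed sign: cyclic loess put Cers2 at 0.023 and Cers5 at 0.0031, and single arrays left out moved Cers2 between -0.048 and 0.039, Cers5 between -0.081 and 0.071, Sptlc1 between -0.12 and 0.014 and Sgms1 between -0.097 and 0.045; none of these passed. The labels number the replicates alike in both groups, but the deviations of same-numbered arrays from their group means correlated at 0.158, -0.0645, 0.00587 and 0.00783, and 2 of 8 arrays correlated best with their own number. With the replicate block 1 member was higher and 0 lower, and 10 other genes were higher and 5 lower, so the block ended no call on a member. The share of genes called among all those tested ran from 4.56% with at least 1.5-fold change to 18.8% among genes with a mean log2 value of at least 6, and was 5.73% without control 1, control 3 and knockout 2. The fits that leave some out also had fewer arrays or genes, and the cause of these differences was not tested.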
